A study of Mus musculus with 56 samples.

Results

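Expression of 31 genes that mark microglia, the resident macrophages of the brain, was followed in the prefrontal cortex of young mice. The genes were taken by name as known markers of these cells, with earlier results of these data known. All 31 were found among the 18088 genes of the deposited table. They were grouped by role as 10 genes of surface sensing and the homeostatic state, 4 genes of lineage identity, 4 complement genes, 7 phagocytic genes, the receptor Cd180 with its partner Ly86, and 4 genes shared with other leukocytes. The mice were of the C57BL/6J strain, and were either heterozygous for Scn2a (HT), which encodes a neuronal sodium channel, or wild type (WT). Fluoxetine, lithium or vehicle reached the pups with the milk of the dam for 3 weeks (P3 to P24, with P the postnatal day), and the cortex was taken at P25. The 56 libraries were 9 WT vehicle, 9 WT fluoxetine, 9 WT lithium, 10 HT vehicle, 9 HT fluoxetine and 10 HT lithium libraries, with 4 or 5 of each sex in every group. The labels name no Scn2a allele, dam, litter or dose. Littermates may therefore stand among the libraries of 1 group, and the p-values below measure only the spread between these libraries.

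Microglia survey the tissue with purinergic, chemokine and lectin receptors, and depend on signals through the receptor Csf1r and on transcription factors such as Spi1 (PU.1). In the postnatal cortex they clear dying cells and take part in the removal of synapses, to which complement protein C1q and the receptor Trem2 with its adaptor Tyrobp (DAP12) contribute. Fluoxetine is an antidepressant that blocks serotonin reuptake, and lithium is a mood stabilizer that inhibits, among other enzymes, the kinase GSK-3.

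Each value was a read count divided by 1 size factor per library, and the depth was 24.3 M to 36.4 M reads. Scn2a itself was lower in HT libraries (8554 ± 423, SD, n = 29) than in WT libraries (12311 ± 780, SD, n = 27), and the ranges did not overlap. In 20 libraries, 3 or 4 in each of the 6 groups, a marker score of olfactory or striatal tissue lay more than 1 log2 unit above the median, and the lithium calls are also given without these libraries. The tissue was not the same in each group. In WT lithium the striatal score alone was above 1 (1.25, 1.71 and 2.35). In HT lithium the olfactory score was above 1 in females 3 and 5 and male 1, and the striatal score in male 2. All those of WT fluoxetine had an olfactory score above 1. A gene was called at an adjusted p below 0.05 in limma, with Benjamini-Hochberg adjustment over the 17778 genes that reached a value of 10 in at least 4 libraries. All 31 genes passed that filter, and no value of any of them was below 26.7 in any library. Changes are differences of log2(value + 1), with the sexes weighted equally, and the error given with a change is its SE.

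The DNA just upstream of 4 of the genes that fell with lithium is shown for the binding motifs of PU.1, the factor that specifies myeloid cells. Of the 14 genes that fell with lithium, these 4 had a single entry in the RefSeq promoter table (GRCm38.p6) with no annotated exon in the 250 bases before the start. The windows are chr3:103738002-103738251 (minus strand) for Olfml3, chr17:48346151-48346400 (plus strand) for Trem2, chr3:106790150-106790399 (minus strand) for Cd53 and chr3:59210883-59211132 (minus strand) for P2ry13. Capitals mark matches to the PU box GAGGAA or, on the other strand, TTCCTC.
Olfml3: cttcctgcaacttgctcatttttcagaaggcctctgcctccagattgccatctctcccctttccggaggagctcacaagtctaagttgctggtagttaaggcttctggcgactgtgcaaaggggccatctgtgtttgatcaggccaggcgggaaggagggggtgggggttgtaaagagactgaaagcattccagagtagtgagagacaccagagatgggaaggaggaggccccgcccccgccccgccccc
Trem2: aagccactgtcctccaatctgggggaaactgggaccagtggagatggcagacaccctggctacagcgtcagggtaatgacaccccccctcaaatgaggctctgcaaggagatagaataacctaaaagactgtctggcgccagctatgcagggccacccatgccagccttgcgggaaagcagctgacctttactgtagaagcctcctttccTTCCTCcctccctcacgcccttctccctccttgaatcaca
Cd53: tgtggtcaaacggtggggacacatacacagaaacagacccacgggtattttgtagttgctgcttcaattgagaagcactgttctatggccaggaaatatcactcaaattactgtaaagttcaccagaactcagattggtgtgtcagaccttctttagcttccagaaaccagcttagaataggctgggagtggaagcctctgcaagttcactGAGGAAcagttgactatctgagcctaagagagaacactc
P2ry13: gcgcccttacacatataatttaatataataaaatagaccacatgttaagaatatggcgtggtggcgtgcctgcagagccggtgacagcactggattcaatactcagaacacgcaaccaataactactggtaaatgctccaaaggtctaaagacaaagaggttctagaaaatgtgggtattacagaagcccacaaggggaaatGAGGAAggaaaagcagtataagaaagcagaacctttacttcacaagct
The PU box stood in 15 of the 24 microglia genes with an entry, or 62.5%, against 25.9% of 27025 genes with a window of the same length. The overlapping ETS core GGAAGT, searched on both strands as well, stood in 10 of the 24 genes and in 22.2% of all genes, and in none of the 4 windows printed. A match describes letters only, and Olfml3, which fell with lithium, held neither motif in its window.

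Microglial identity was checked from the levels themselves. Per kilobase of transcript, the lysosomal protease Ctss was the highest of the 31 genes in WT vehicle libraries (933 ± 61.3, SD, n = 9), followed by the 3 chains of C1q. These were C1qa at 881 ± 86.0, C1qb at 854 ± 67.9 and C1qc at 816 ± 72.2, each within the spread of its neighbour. Csf1r followed at 632 ± 41.6, the ADP receptor P2ry12 at 504 ± 46.3, Tyrobp at 468 ± 34.6, the chemokine receptor Cx3cr1 at 344 ± 20.3, Trem2 at 287 ± 37.6 and Tmem119 at 249.6 ± 25.4. Fcrls (388 ± 47.0), Fcer1g (221 ± 14.6), Sall1 (177 ± 66.5) and Ly86 (174 ± 14.6) lay in the middle of the order. At the other end lay Spi1 (49.7 ± 7.1), Cd180 (25.9 ± 7.21) and the pan-leukocyte phosphatase Ptprc (24.5 ± 2.73), so the order spanned 38.2-fold. Of 30 neighbours in that order, 20 differed by less than 1 SD. Defining microglia markers were thus far from 0 in each library, whereas 12 of 16 markers of blood monocytes, neutrophils and lymphocytes were not among the genes of the table, and the other 4 summed to between 14.8 and 53.0 per library. Markers of macrophages at the borders of the brain were present too, with Mrc1 at a mean value of 205. A part of these cells in the values of the 31 genes was not tested here.

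**Figure D1:**
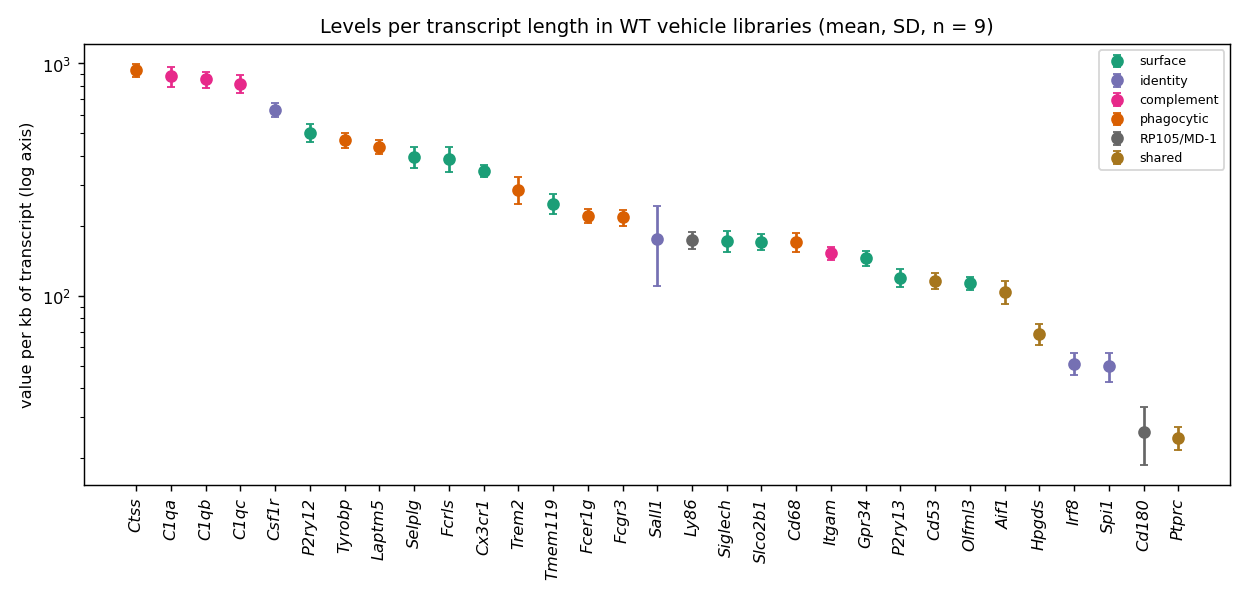
Mean value per kilobase of transcript (log axis) of each of the 31 genes in the 9 WT vehicle libraries, coloured by role, with SD as whiskers. Ctss and the C1q chains lie highest at 933 to 816, and Cd180 and Ptprc lowest at 25.9 and 24.5.

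Lithium was accompanied by lower levels of 14 of the 31 microglia genes and by higher levels of none, when 19 lithium libraries were compared with 19 vehicle libraries over both genotypes. Among all tested genes, 6.85% were called lower and 9.31% higher in this comparison. At an unadjusted p under 0.05, 21 of the 31 genes were lower, against 13.5% of all genes. The change was below 0 for 30 of the 31 genes, against 49.8% of all genes, and the median change was -0.12, against 0.00 for all genes. The list was chosen with earlier results of these data known, so these shares describe it and are not an independent test. Fcgr3, an activating receptor for IgG, was the single gene above 0 (0.03 ± 0.036, adjusted p = 0.61). In bulk tissue, fewer microglia and less RNA per microglial cell cannot be told apart. By role, the calls were both members of the Cd180 and Ly86 pair, 6 of 10 surface genes, 3 of 7 phagocytic genes, and 1 each of the 4 identity, 4 complement and 4 shared genes. Median changes were -0.43, -0.16, -0.07, -0.08, -0.12 and -0.12 in the same order, and whether the roles differ was not tested. Without the 20 libraries with a high olfactory or striatal score 5 genes were called, against 2.42% of all genes called lower in that fit, and the median was -0.08.

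Ly86 (MD-1) is the secreted partner that carries Cd180 (RP105), a relative of the Toll-like receptors without their signalling domain, to the cell surface. The lowest, median and highest Ly86 values were 158, 197 and 214 in WT vehicle and 142, 159 and 171 in WT lithium libraries. In HT mice they were 176, 195 and 212 under vehicle and 154, 163 and 191 under lithium. All 19 lithium libraries lay below the vehicle mean of their own genotype and sex, and in WT the ranges overlapped through 1 vehicle female alone (158), the next vehicle library being at 189.6. Ly86 fell, with a change of -0.27 ± 0.037 (adjusted p = 9.9e-07), the smallest p of the 31 genes. Values of Cd180 were 38.4, 65.6 and 93.6 in WT vehicle, 26.7, 44.8 and 70.3 in WT lithium, 39.2, 69.4 and 85.0 in HT vehicle and 29.2, 46.4 and 58.3 in HT lithium libraries. The spread was wide and the ranges overlapped in both genotypes, yet 18 of 19 lithium libraries lay below their vehicle mean. Of the 31 genes, Cd180 had the change farthest from 0, -0.58 ± 0.13 (adjusted p = 0.0013), and also the largest error. An exon of Cd180 overlaps one of Mast4 on the other strand, which was called higher, 0.11 ± 0.026 (adjusted p = 0.0032), and whether the authors' quantification used the strand of the kit is not given in the sources used here.

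**Figure D2:**
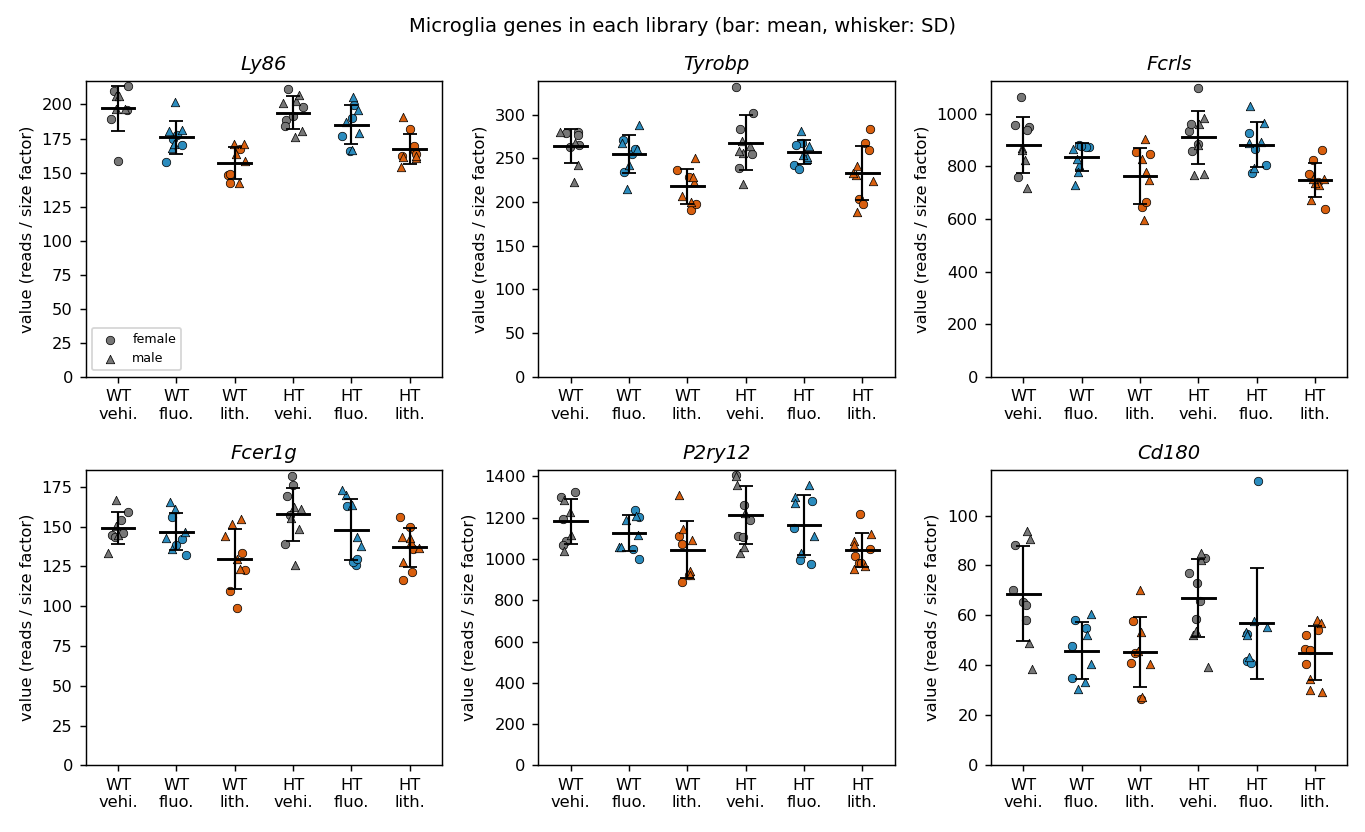
Values (reads divided by size factor) of 6 microglia genes in each library, by genotype and treatment, with females as circles and males as triangles, and the mean with SD as bar and whisker. The medians of Ly86 are 196.7 and 158.6 in WT vehicle and lithium and 194.6 and 162.9 in HT vehicle and lithium, and the ranges of each gene overlap between treatments.

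Among the surface genes, Fcrls, a scavenger receptor-like protein typical of mouse microglia, ran at 719, 869.9 and 1062 in WT vehicle and 598, 778 and 903 in WT lithium libraries. The HT values were 766, 908 and 1099 under vehicle and 638, 745 and 862 under lithium, with medians lower under lithium in both genotypes and ranges that overlapped. Its change was -0.24 ± 0.047 (adjusted p = 0.00031). P2ry12, which guides microglial processes toward ADP released by injured cells, measured 1039, 1192 and 1323 under vehicle and 890.4, 1072 and 1308 under lithium in WT mice, and 1027, 1206 and 1406 under vehicle and 952, 1031 and 1216 under lithium in HT mice. The groups overlapped, with 17 of 19 lithium libraries below their vehicle mean, and the change was -0.20 ± 0.049 (adjusted p = 0.0032). An exon of P2ry12 overlaps one of Med12l on the other strand, which differed by 0.06 ± 0.031 (adjusted p = 0.23) and was not called. The related ADP receptor P2ry13 measured 245, 308 and 341 under vehicle and 203, 259 and 352 under lithium in WT mice, and 241, 281 and 359 under vehicle and 203, 251 and 323 under lithium in HT mice. The WT lithium range was the wider one and held the WT vehicle range. The change of P2ry13 was -0.21 ± 0.060 (adjusted p = 0.0099), with 17 of 19 libraries lower.

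Olfml3, a secreted protein of the olfactomedin family, measured 548, 623 and 681 in WT vehicle, 453, 595 and 615 in WT lithium, 534, 648 and 731 in HT vehicle and 445, 555 and 678 in HT lithium libraries. The highest values were under vehicle in HT mice but under fluoxetine in WT mice, and the change with lithium was -0.18 ± 0.045 (adjusted p = 0.0036). Siglech, a sialic acid-binding lectin that signals through Tyrobp, measured 324, 361 and 429 under vehicle and 271, 317 and 334 under lithium in WT mice, and 306, 358 and 392 under vehicle and 275, 324 and 381 under lithium in HT mice. Only the top of the WT lithium range reached into the WT vehicle range, and the overall change was -0.17 ± 0.044 (adjusted p = 0.005). Gpr34, a receptor for lysophosphatidylserine, measured 262, 299.6 and 342 under vehicle and 214, 262 and 336 under lithium in WT mice, and 241, 293 and 367 under vehicle and 264, 277 and 311 under lithium in HT mice. The HT lithium range lay inside the HT vehicle range, and the change was -0.15 ± 0.050 (adjusted p = 0.032). Its adjusted p reached 0.072 without WT lithium female 4.

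The other 4 surface genes did not pass the threshold. Cx3cr1, the receptor for the neuronal ligand Cx3cl1, measured 1387, 1531 and 1716 in WT vehicle, 1206, 1425 and 1722 in WT lithium, 1397, 1541 and 1813 in HT vehicle and 1338, 1446 and 1609 in HT lithium libraries, a difference of -0.09 ± 0.036 (adjusted p = 0.064). Tmem119, a membrane protein used to tell microglia from other macrophages, measured 492, 549 and 667 in WT vehicle, 459.7, 542 and 692 in WT lithium, 506, 602 and 671 in HT vehicle and 459.7, 551 and 685 in HT lithium libraries, with a difference of -0.06 ± 0.051 (adjusted p = 0.51). Both genes kept broad overlap between vehicle and lithium. The organic anion transporter Slco2b1 ran from 629 to 872 over all 56 libraries and differed by -0.08 ± 0.036 (adjusted p = 0.13). The selectin ligand Selplg ran from 619 to 889 and differed by -0.06 ± 0.036 (adjusted p = 0.23).

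Of the identity genes, Spi1 was the one called. It measured 85.1, 96.4 and 135 in WT vehicle, 75.5, 85.5 and 109 in WT lithium, 82.9, 108 and 144 in HT vehicle and 58.0, 91.9 and 111 in HT lithium libraries, and 18 of 19 lithium libraries lay below their vehicle mean although the ranges overlapped. The change was -0.22 ± 0.069 (adjusted p = 0.024). Csf1r, the receptor for CSF1 and IL-34 on which microglial survival depends, measured 2778, 2905 and 3289.8 under vehicle and 2539, 2867 and 3180.2 under lithium in WT mice, and 2691, 2929 and 3350.1 under vehicle and 2656, 2895 and 3190.3 under lithium in HT mice. Vehicle and lithium medians lay close together, and the difference was -0.05 ± 0.027 (adjusted p = 0.26), with the smallest error of the 31 genes. An exon of Csf1r overlaps one of Hmgxb3 on the other strand, which was called higher, 0.07 ± 0.017 (adjusted p = 0.002), in 17 of 19 libraries. Its part in the Csf1r values was not tested. Irf8, a partner of PU.1, ran from 108 to 172 over all libraries and differed by -0.11 ± 0.051 (adjusted p = 0.13). Sall1, a repressor that maintains the microglial program, differed by -0.05 ± 0.12 (adjusted p = 0.81). Sall1 values moved with the tissue scores: they were 987 to 1828 in the 11 libraries with an olfactory score above 1 and 640.1 to 1046 in the other 45.

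The C1q genes followed Ctss in level per length, and 1 of the 4 complement genes was called. C1qa measured 777, 949.8 and 1012 in WT vehicle, 635, 818 and 927 in WT lithium, 738, 916 and 1128 in HT vehicle and 747, 866 and 1003 in HT lithium libraries. It was called at -0.12 ± 0.044 (adjusted p = 0.047), a call lost in 22 of 56 fits that left out 1 library (highest adjusted p = 0.11, without WT lithium female 4). C1qb measured 829.7, 945 and 1037 in WT vehicle, 689.5, 883 and 1081 in WT lithium, 718, 910.0 and 1069.7 in HT vehicle and 753, 878 and 1031 in HT lithium libraries and differed by -0.07 ± 0.046 (adjusted p = 0.3). C1qc measured 838, 973 and 1105 in WT vehicle, 689.5, 917 and 1036 in WT lithium, 871, 985 and 1084 in HT vehicle and 721, 943 and 1091 in HT lithium libraries and differed by -0.12 ± 0.043 (adjusted p = 0.055). The 3 chains assemble into 1 protein, and their values overlapped widely between vehicle and lithium. Itgam, the alpha chain of the complement receptor CR3 (CD11b), ran from 519.6 to 838 over all libraries and differed by -0.12 ± 0.042 (adjusted p = 0.052). Under 12 alternative settings C1qa was called in 8, C1qc in 4 and Itgam in 5.

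Of the 7 phagocytic genes the receptor Trem2 and the adaptors Tyrobp and Fcer1g fell. Tyrobp measured 223, 268 and 280.1 in WT vehicle and 191, 223 and 250.1 in WT lithium libraries. In HT mice it measured 221, 261 and 331 under vehicle and 188, 232 and 283 under lithium, with lower medians under lithium and overlapping ranges in both genotypes. The change was -0.24 ± 0.046 (adjusted p = 0.00021), with 18 of 19 libraries lower. Trem2, the lipid-sensing receptor that pairs with Tyrobp, measured 246, 321 and 367 under vehicle and 219, 264 and 319 under lithium in WT mice, and 245, 299.8 and 359 under vehicle and 201, 249.7 and 336 under lithium in HT mice. Its change was -0.23 ± 0.060 (adjusted p = 0.0057), with 15 of 19 libraries lower. Fcer1g, the gamma chain shared by Fc receptors and a second adaptor of the Tyrobp kind, measured 133, 146 and 167 under vehicle and 98.7, 129.5 and 155 under lithium in WT mice, and 126, 159 and 182 under vehicle and 117, 138 and 156 under lithium in HT mice. Its change was -0.21 ± 0.046 (adjusted p = 0.0011), with 17 of 19 libraries lower. Both genes overlapped between vehicle and lithium in each genotype. The lysosomal genes did not pass: Ctss ran from 1018 to 1498 over all libraries and differed by -0.07 ± 0.032 (adjusted p = 0.15), and the membrane protein Laptm5 ran from 957 to 1285 and differed by -0.04 ± 0.031 (adjusted p = 0.34). Cd68, a lysosomal glycoprotein, ran from 168 to 248 and differed by -0.01 ± 0.041 (adjusted p = 0.92). Fcgr3 (251 to 361) has close sequence relatives among the Fc receptors, and its values are uncertain to that extent.

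Of the 4 genes shared with other leukocytes, the tetraspanin Cd53 was called. It measured 182, 201 and 234 in WT vehicle, 152, 169.7 and 217 in WT lithium, 177, 204 and 241 in HT vehicle and 179, 192 and 209 in HT lithium libraries, and changed by -0.16 ± 0.043 (adjusted p = 0.0094). In WT, 3 of 9 lithium libraries reached into the vehicle range, and its HT lithium range lay inside the HT vehicle range. Aif1, which encodes IBA1, the standard stain for microglia, ran from 62.7 to 107 over all libraries and differed by -0.09 ± 0.051 (adjusted p = 0.22). The prostaglandin D synthase Hpgds (150.1 to 284) differed by -0.15 ± 0.065 (adjusted p = 0.1) and Ptprc, or CD45 (66.6 to 147), by -0.09 ± 0.071 (adjusted p = 0.44).

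Split by genotype, lithium called 6 of the 31 genes lower in WT mice, against 1.88% of all genes, and 7 in HT mice, against 4.13% of all genes. None was called higher in either, against 3.84% and 4.64% of all genes. At an unadjusted p under 0.05, 20 were lower in WT and 11 in HT mice, against 8.7% and 11.7% of all genes. Ly86, Tyrobp, Fcer1g and Cd180 were called in both. In WT the other calls were Siglech (-0.25 ± 0.063, adjusted p = 0.014) and Cd53 (-0.22 ± 0.063, adjusted p = 0.03), and in HT they were Fcrls (-0.28 ± 0.065, adjusted p = 0.0048), Olfml3 (-0.23 ± 0.061, adjusted p = 0.015) and P2ry12 (-0.21 ± 0.067, adjusted p = 0.036). Ly86 changed by -0.33 ± 0.053 (adjusted p = 0.0002) in WT and -0.21 ± 0.050 (adjusted p = 0.005) in HT mice. Tyrobp changed by -0.27 and -0.20, Fcer1g by -0.23 and -0.20, and Cd180 by -0.60 and -0.57. Of the 31 changes 30 lay below 0 in WT and 27 in HT mice, against 49.3% and 50.3% of all genes, with medians of -0.18 and -0.08. By role, the medians in WT and HT mice were -0.16 and -0.10 for the surface genes, -0.17 and -0.04 for identity, -0.15 and -0.07 for complement, -0.08 and -0.05 for phagocytic genes, -0.47 and -0.39 for Cd180 and Ly86, and -0.22 and -0.01 for the shared genes. No gene had all lithium libraries below all vehicle libraries in either genotype, which held for 0.0731% of all genes in WT and 0.107% in HT mice.

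The difference between the genotypes was tested directly. The interaction called 0 of the 31 genes and 0% of all genes in limma, and 1 of the 31, Hpgds, had an unadjusted p under 0.05, against 10.9% of all genes (0.27 ± 0.13, adjusted p = 0.45). edgeR and DESeq2 called 0 of the 31 as well. For Ly86 the HT effect minus the WT effect was 0.12 ± 0.073, for Siglech 0.17 ± 0.087, for Cd53 0.13 ± 0.086, for Fcrls -0.07 ± 0.095 and for Cd180 0.03 ± 0.26. A call in 1 genotype alone is therefore not a shown difference between genotypes. The counts per genotype moved with single libraries. In WT the count was 3 without lithium female 4, lithium male 4, vehicle female 3 or vehicle male 1, and 11 without vehicle male 2. Of the WT calls, Cd180 was lost in 23 of 56 single omissions, Fcer1g in 8 and Cd53 in 6, with the highest adjusted p (0.13, 0.11 and 0.09) without lithium female 4, and Siglech in 1 (0.053, without vehicle male 1). In HT the count was 3 without lithium female 5 or lithium male 3, and 4 without lithium female 4, vehicle female 2, vehicle female 3, vehicle male 1, vehicle male 2 or vehicle male 5. Of the HT calls, Fcer1g was lost in 11 omissions (0.09 without lithium female 4), P2ry12 in 9 (0.084 without vehicle male 1), Cd180 in 9 (0.082 without lithium male 3) and Tyrobp in 6 (0.091 without lithium female 5). Ly86 kept its call in both genotypes in each of the 56, as did Tyrobp in WT and Fcrls and Olfml3 in HT.

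**Figure D3:**
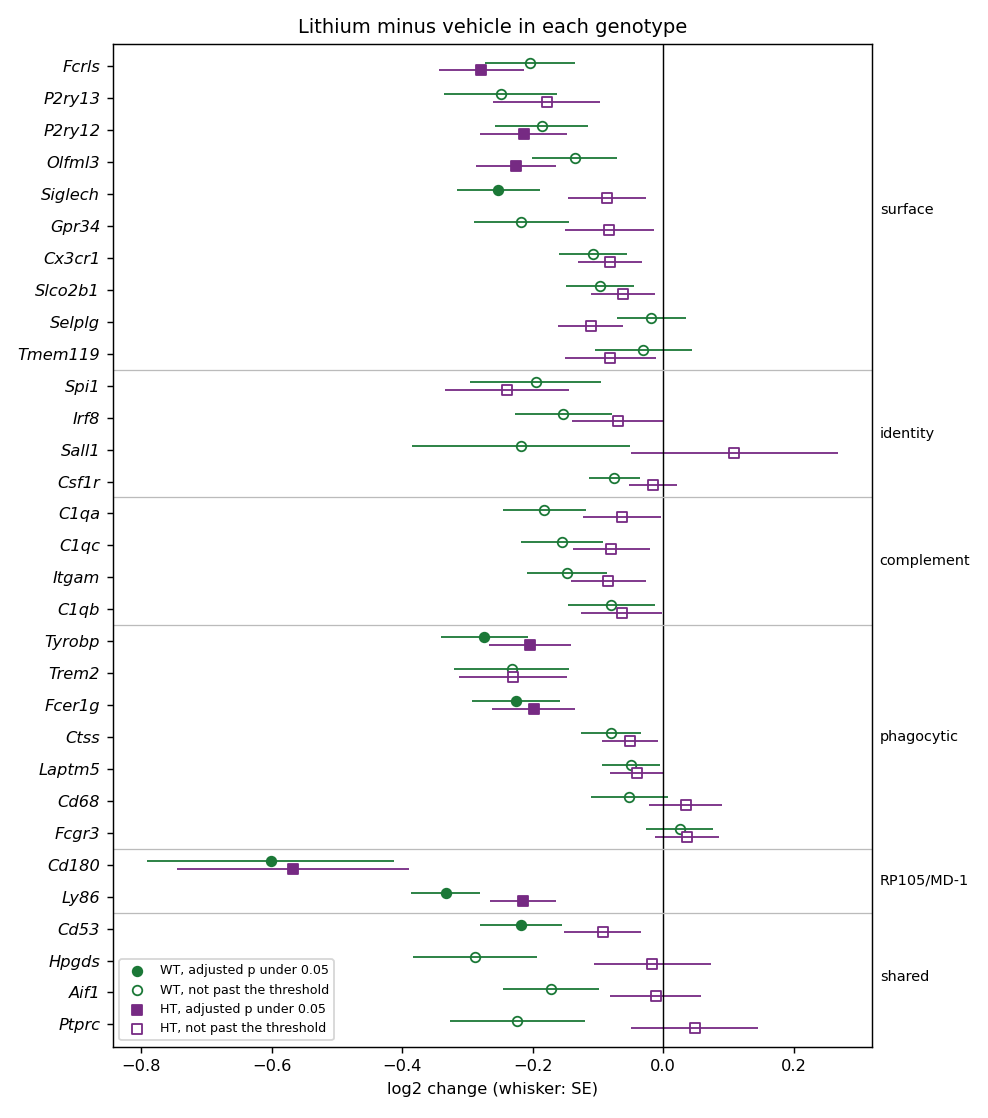
Log2 change with lithium of each of the 31 genes in WT (circles) and HT mice (squares), with SE as whiskers, grouped by role; filled symbols mark an adjusted p under 0.05. Of the 31 changes, 30 lie below 0 in WT and 27 in HT mice, and Cd180 lies farthest left at -0.60 and -0.57.

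Within a sex, 4 or 5 libraries stood in each group. In WT females lithium called 3 of the 31 genes lower (Ly86, Fcer1g and Tyrobp), against 0.214% of all genes, and in WT males 1, Ly86, against 0.0562%. At an unadjusted p under 0.05, 23 were lower in WT females and 4 in WT males, against 6.8% and 5.36% of all genes. Ly86 changed by -0.35 ± 0.075 (adjusted p = 0.026) in WT females and by -0.32 ± 0.075 (adjusted p = 0.046) in WT males, and the difference between the sexes was -0.02 ± 0.11 (adjusted p = 0.98). Medians over the 31 genes were -0.26 in WT females and -0.08 in WT males. The female minus male difference in WT had a median of -0.15 over the 31 genes, with 30 of 31 below 0. In the same contrast the medians were -0.997 for striatal (15 of 15 below 0) and -0.53 for olfactory genes (17 of 17). They were -0.49 for oligodendrocyte (15 of 15) and 0.06 for neuron markers (4 of 15). The part of tissue composition in the lower median of WT females was not tested. The test of the difference between the sexes called 0 of the 31 genes (0% of all genes) in limma, and 3 had an unadjusted p under 0.05, against 6.59% of all genes. The smallest p was that of C1qb (-0.40 ± 0.13, adjusted p = 0.74). In HT mice no gene of the 31 was called in females, against 0.349% of all genes called lower, or in males, against 0.264%, and 8 in each sex were lower at an unadjusted p under 0.05, against 7.54% and 6.58% of all genes. The HT medians were -0.10 in females and -0.09 in males, and the smallest p belonged to Fcrls in females (-0.30 ± 0.092, adjusted p = 0.08) and to Ly86 in males (-0.22 ± 0.071, adjusted p = 0.13). The difference between the sexes in HT mice called 0 of the 31 (0% of all genes), with 0 at an unadjusted p under 0.05, against 2.71% of all genes. These counts within a sex moved with single libraries and settings, from 0 to 4 in WT females and from 0 to 1 in WT males.

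Fluoxetine called 0 of the 31 genes over both genotypes (0.928% of all genes), in WT mice (0.146%) and in HT mice (0.045%) in limma, and edgeR and DESeq2 called 0 of the 31 too. Unadjusted p-values under 0.05 were found for 4, 3 and 0 of the 31 genes, against 14%, 10.9% and 8.56% of all genes. The median change over genotypes was -0.03. Ly86 had the smallest p: its lowest, median and highest values under fluoxetine were 158, 174 and 202 in WT and 166, 187 and 206 in HT mice, between those under vehicle and lithium at the median, and the difference from vehicle was -0.12 ± 0.037 (adjusted p = 0.1). Cd180 measured 30.6, 47.7 and 60.4 in WT and 41.0, 52.6 and 114 in HT mice. Its difference was -0.40 ± 0.13 (adjusted p = 0.12), with 17 of 18 fluoxetine libraries below their vehicle mean. Spi1 differed by -0.19 ± 0.070 (adjusted p = 0.17) and Fcgr3 by 0.08 ± 0.036 (adjusted p = 0.32). One library decided the count in each of 2 cases: without HT fluoxetine female 1, in which Cd180 stood at 114, Cd180 was called (-0.48, adjusted p = 0.036), and without WT vehicle female 1, in which Ly86 stood at 158, Ly86 was called (-0.14, adjusted p = 0.039). In HT mice alone the smallest p belonged to Olfml3 (-0.11 ± 0.063, adjusted p = 0.66). The fluoxetine by genotype interaction called 0 of the 31 and 0% of all genes in limma, with 1 of the 31 at an unadjusted p under 0.05, against 5.44% of all genes, and that gene was Hpgds (0.33 ± 0.13, adjusted p = 0.86).

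Lithium and fluoxetine share their vehicle libraries, so the drugs were also compared with each other. In the lithium libraries 7 of the 31 genes were lower than in the fluoxetine libraries, against 2.67% of all genes, and none was higher, against 3.84%. These were Ly86 (-0.15 ± 0.037, adjusted p = 0.0076), Tyrobp (-0.19 ± 0.046, adjusted p = 0.008), Fcrls (-0.19 ± 0.048, adjusted p = 0.011), C1qa (-0.16 ± 0.044, adjusted p = 0.025), P2ry13 (-0.20 ± 0.061, adjusted p = 0.032), Siglech (-0.14 ± 0.044, adjusted p = 0.046) and Fcer1g (-0.15 ± 0.047, adjusted p = 0.049). The median over the 31 genes was -0.11. Cd180 (-0.18 ± 0.13, adjusted p = 0.45) and Spi1 (-0.02 ± 0.070, adjusted p = 0.88), which were called for lithium against vehicle, did not pass the threshold here. Without the 20 libraries with a high olfactory or striatal score 0 of the 31 were called in limma, against 1.18% of all genes called lower in that fit, and 12 were lower at an unadjusted p under 0.05, against 9.25%. Fcer1g lost its call in 36 of 56 single omissions, Siglech in 18, P2ry13 in 9 and C1qa in 1. The count of 7 was 3 without WT lithium female 4, and 4 without WT lithium male 4, WT lithium male 5, HT lithium female 5, WT fluoxetine female 1 or HT fluoxetine male 4.

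**Figure D4:**
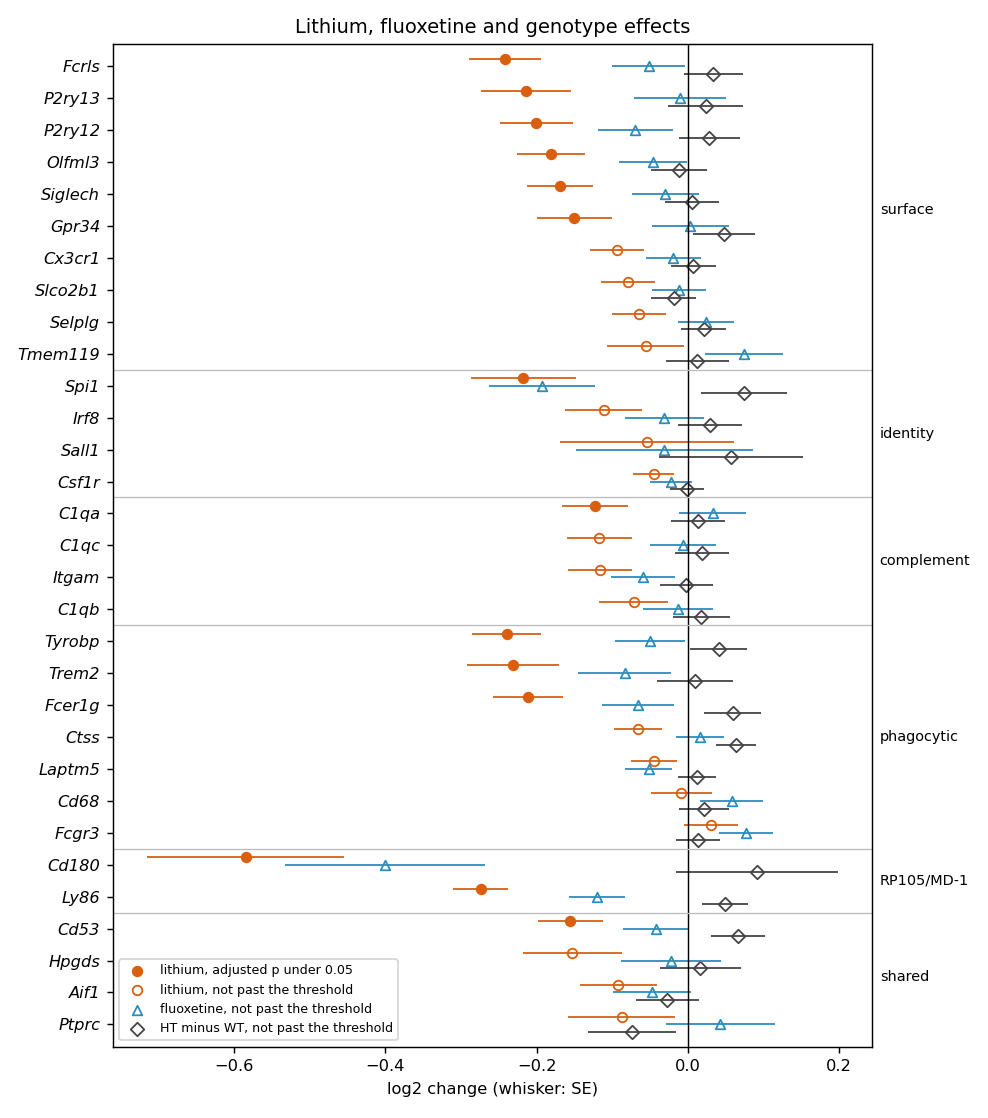
Log2 change of each of the 31 genes with lithium and with fluoxetine against vehicle over both genotypes, and the HT minus WT difference over treatments, with SE as whiskers; filled symbols mark an adjusted p under 0.05. The 14 filled symbols are all lithium effects, and both drug effects share the same 19 vehicle libraries.

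Heterozygosity for Scn2a was not accompanied by a called change in any of the 31 genes, and hardly any gene of the table was called by genotype. A count of 0 is therefore near the share of all genes and is not particular to microglia genes. Under vehicle 0 were called (0.00562% of all genes), under fluoxetine 0 (0.0112%), under lithium 0 (0.0337%) and over the 3 treatments 0 (0.152%) in limma. At an unadjusted p under 0.05 the counts were 1, 0, 2 and 1, against 9.93%, 3.94%, 10.3% and 8.08% of all genes. edgeR and DESeq2 called 0 of the 31 in each. With vascular, border macrophage and leukocyte scores as covariates, 2 genes were called higher in HT over treatments, P2ry12 (0.13, adjusted p = 0.037) and Fcrls (0.14, adjusted p = 0.023), against 0.101% of all genes called higher in that fit. Without covariates, all 15 endothelial and pericyte markers were themselves lower in HT over treatments, with a median of -0.09. Of these, Abcc9 was called (-0.22, adjusted p = 0.015), and the part of these markers in the 2 calls was not tested. The smallest p of the 31 genes without covariates belonged to Ptprc under vehicle (-0.23 ± 0.10, adjusted p = 0.43), to Hpgds under fluoxetine (0.14 ± 0.095, adjusted p = 1.0), to Cd53 under lithium (0.16 ± 0.061, adjusted p = 0.38) and to Ctss over treatments (0.06 ± 0.026, adjusted p = 0.46). The medians over the 31 genes were 0.00 under vehicle, 0.00 under fluoxetine, 0.04 under lithium and 0.02 over treatments. Over treatments Csf1r differed by 0.00 ± 0.022 (adjusted p = 1.0), Cx3cr1 by 0.01 ± 0.030 (adjusted p = 0.98) and P2ry12 by 0.03 ± 0.040 (adjusted p = 0.93). Sex called 0 of the 31 genes in limma (0.197% of all genes), with 0 at an unadjusted p under 0.05, against 6.25% of all genes, and the smallest p was that of Fcer1g (-0.08 ± 0.038, adjusted p = 0.8, female minus male).

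The microglia genes varied together from library to library after the means of the 12 groups had been removed. Each gene was correlated with the mean of the other 30 over the 56 libraries, which share depth scaling and dissection. Pearson's r had a median of 0.61 and ran from 0.04 for Sall1 to 0.84 for Cx3cr1, and 22 of the 31 exceeded 0.5. Among the 17747 other genes, the correlation with the mean of all 31 had a median of 0.01 and exceeded 0.5 in 2.11%. The most weakly tied members after Sall1 were Irf8 (0.30) and Cd180 (0.39), and Ly86 lay at 0.50, Tyrobp at 0.48 and C1qa at 0.82. Over the 465 pairs of members the median r was 0.39 and 95.9% were above 0. Outside the list, the 10 genes with the highest r included Vsir (0.78), Bin2, Tek, Itgb5, Acsbg1, Tgfbr2, Nckap1l and Pltp (0.74). Vsir encodes the immune checkpoint protein VISTA, while Tek is an endothelial receptor.

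**Figure D5:**
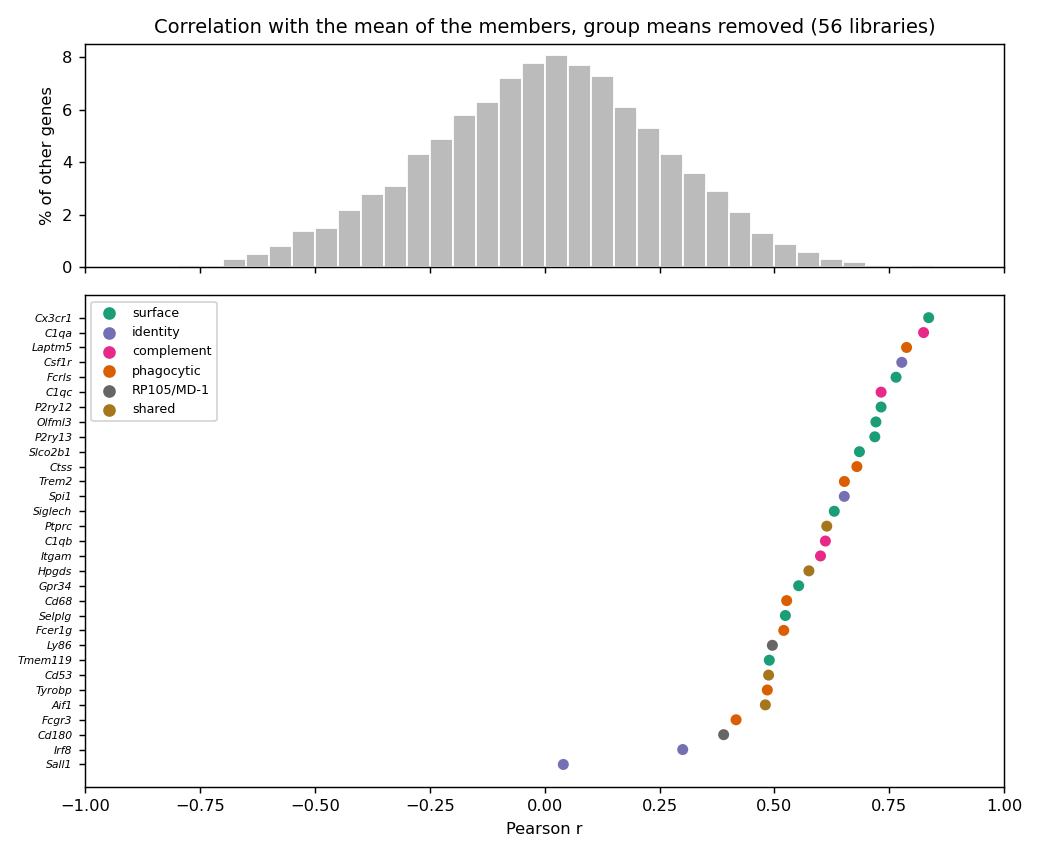
Upper panel: distribution of Pearson's r between each of the other genes and the mean of the 31 microglia genes over 56 libraries, group means removed, in % of genes. Lower panel: r of each member with the mean of the others, coloured by role, from 0.84 for Cx3cr1 to 0.04 for Sall1.

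Further genes of the microglial pathways were read from lists that hold none of the 31; the lithium background is that given above, 6.85% lower and 9.31% higher. Of 40 other genes enriched in microglia, lithium over genotypes called 9 lower and 2 higher, and 34 lay below 0, with a median of -0.08. Cd37 (-0.22, adjusted p = 0.0065) and Abi3 (-0.23, adjusted p = 0.009) were among those that fell, whereas Mertk, a receptor for uptake of dying cells that astrocytes also express, rose (0.21 ± 0.047, adjusted p = 0.0015). In WT mice alone, with the WT background given above, lithium called 5 of the 40 lower and 1 higher. The latter was Blnk (0.27 ± 0.077, adjusted p = 0.026, higher in 9 of 9 libraries). A list of 12 genes held signals that act on microglia and receptors or effectors of such signals. Of these, the intracellular TGF-beta effector Smad3 (0.23 ± 0.046, adjusted p = 0.00035, higher in 19 of 19 libraries) and the inhibitory ligand Cd200 (0.09 ± 0.026, adjusted p = 0.015) rose. The cytokine Tgfb1 fell (-0.14 ± 0.038, adjusted p = 0.0098). The cells in which Smad3 rose cannot be told in bulk tissue. The CSF1 receptor ligands Csf1 and Il34 were among those not called. Of 17 tested genes of the Toll-like receptor family and its adaptors, the adaptor Ticam1 rose (0.20 ± 0.050, adjusted p = 0.0041) and none fell. Of 14 other complement genes, C1ra rose (0.33 ± 0.10, adjusted p = 0.019) and C2 fell (-0.29 ± 0.098, adjusted p = 0.037). Of 19 tested genes of reactive microglia, Ctsb rose (0.06 ± 0.023, adjusted p = 0.047) and Cd63 (-0.12 ± 0.032, adjusted p = 0.01) and Cd9 (-0.14 ± 0.041, adjusted p = 0.017) fell. For these genes too, the cells in which they changed cannot be told in bulk tissue. Of 10 cell cycle genes none was called in limma, with 0 at an unadjusted p under 0.05. Fluoxetine over genotypes, which shares its vehicle libraries with lithium, called 3 genes of these lists higher and none lower: Smad3 (0.21, adjusted p = 0.022), Mertk (0.19, adjusted p = 0.039) and the receptor Tlr7 (0.27, adjusted p = 0.041).

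Markers of vessels and meninges were lower with lithium as well. Of 15 endothelial and pericyte markers 6 fell and 1 rose, with a median of -0.12: the tight junction gene Cldn5 changed by -0.44 ± 0.077 (adjusted p = 8.7e-05), lower in 19 of 19 libraries, and the receptor Flt1 rose (0.13 ± 0.035, adjusted p = 0.0087). Of 10 meningeal fibroblast markers 5 fell, with a median of -0.19, among them Col3a1 (-0.39 ± 0.081, adjusted p = 0.00068) and Igf2 (-0.24 ± 0.067, adjusted p = 0.0089). Summed endothelial and pericyte values ran from 15087 to 18740 in WT vehicle, 14494 to 17818 in WT lithium, 13781 to 18631 in HT vehicle and 12323 to 15630.5 in HT lithium libraries. Summed meningeal values ran from 6045 to 9492, 4941 to 7889, 5327 to 9284 and 4695 to 7403 in the same groups. Counts at an unadjusted p under 0.05 in this paragraph are of either direction, and the matching share of all genes is not given here. Of the 4 tested leukocyte markers 0 were called in limma, with 1 at an unadjusted p under 0.05. Of 11 tested markers of border macrophages 0 were called in limma, with 2 at an unadjusted p under 0.05 and a median of -0.09, and their sum ran from 1244 to 1578, 931 to 1537, 1026 to 1459 and 1105 to 1574. Mrc1 and Cd163, which define these cells, were above 0 in each library. In limma, of 15 markers each of oligodendrocytes and neurons none was called (0 and 4 at an unadjusted p under 0.05), nor of 5 erythroid genes (1 at an unadjusted p under 0.05), and of 15 astrocyte markers 1 rose, Gjb6 (0.17 ± 0.052, adjusted p = 0.022). Of 17 olfactory genes 0 were called, with a median of -0.18, and of 15 striatal genes 0, with a median of 0.11; no gene of either list had an unadjusted p under 0.05 in limma.

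Medians of these lists were also taken within each genotype, and their difference between genotypes was not tested. Olfactory genes had a median of -0.43 with lithium in WT mice, with 17 of 17 below 0, and of 0.02 in HT mice, with 13 of 17 above 0. Striatal genes had a median of 0.28 in WT mice, with 15 of 15 above 0, and of -0.14 in HT mice, with 11 of 15 below 0. Border macrophage markers had a median of -0.26 in WT mice, with 10 of 11 below 0, and of 0.09 in HT mice, with 7 of 11 above 0. Endothelial and pericyte markers had medians of -0.07 and -0.16, and meningeal markers of -0.29 and -0.14, with 10 of 10 meningeal genes below 0 in both. The medians of the 31 microglia genes were -0.18 and -0.08 in the same order, and the part of these tissues in the values of either genotype was not tested beyond the fits that follow.

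With scores of vessels, border macrophages and leukocytes as covariates, 5 of the 31 microglia genes were still called lower with lithium over genotypes, against 3.42% of all genes in that fit, and the median over the 31 was -0.03. These were Ly86 (-0.21, adjusted p = 0.00032), Tyrobp (-0.20, adjusted p = 0.0028), Fcrls (-0.11, adjusted p = 0.046), Cd180 (-0.43, adjusted p = 0.029) and Fcer1g (-0.14, adjusted p = 0.047). P2ry12 was then at -0.07 (adjusted p = 0.33), Trem2 at -0.12 (adjusted p = 0.19) and C1qa at -0.01 (adjusted p = 0.86). Without the 20 libraries with olfactory or striatal scores above 1, 5 genes were called as well, against 2.42% of all genes: Ly86 (-0.22, adjusted p = 0.008), Tyrobp (-0.23, adjusted p = 0.02), Fcrls (-0.20, adjusted p = 0.04), P2ry12 (-0.18, adjusted p = 0.039) and Cd180 (-0.67, adjusted p = 0.014). The other 9 genes lost their call there, with changes still below 0: Fcer1g (adjusted p = 0.053), Siglech (0.054), P2ry13 (0.11), Spi1 (0.13), Olfml3 (0.14), Trem2 (0.18), Gpr34 (0.19), Cd53 (0.31) and C1qa (0.45). That fit has fewer libraries. With olfactory and striatal scores as covariates on all 56 libraries, C1qa alone lost its call over genotypes (adjusted p = 0.065). Cx3cr1 (adjusted p = 0.04), C1qc (0.047) and Itgam (0.028) gained one, all lower. Gpr34 gained a call in WT (0.045), and Gpr34 (0.039) and Olfml3 (0.047) did for lithium minus fluoxetine, with none lost there. Per genotype the calls with the vascular, border macrophage and leukocyte covariates were 3 in WT (0.501% of all genes lower) and 1, Fcrls, in HT mice (2.3%). Without the 20 libraries limma called 0 in WT (0.141% of all genes lower) and 1, Fcrls, in HT mice (1.36%), and 6 in WT were lower at an unadjusted p under 0.05, against 5.74% of all genes. No fit held a meningeal score, and the part of meningeal tissue in the lower microglial values was not tested.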

How the data were processed

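RNA-seq was measured in the prefrontal cortex of 56 mice, 1 library each, grouped by the genotype, treatment and sex in their titles. Per the labels' protocols, a stranded mRNA kit (TruSeq) was used for the libraries. The submitters' processing notes name Salmon 0.11.2, R 3.6.0, DESeq2 1.19.11 and the build GRCm38 with no role or order. Whether quantification used the strand is not given in the sources used here. The deposited signal of a gene was its read count divided, by the authors, by 1 size factor per library, as the values themselves show: whole reads were recovered for 100% of values in each library (tolerance 0.01). Depth was 24.3 M to 36.4 M reads. No libraries held identical values, and columns were matched to samples by the library name in the labels.

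The main test was limma 3.58.1 in R 4.3.3 with trend and robust settings on log2(value + 1), with 12 group means over all 56 libraries (44 residual degrees of freedom) so that all groups shared 1 estimate of the spread. Genes with a value of at least 10 in at least 4 libraries were tested (17778, with 310 left out), and p-values were adjusted by Benjamini-Hochberg over all of them. edgeR 4.0.16 (quasi-likelihood) on the recovered reads was an alternative, since the files hold normalized values, and it called 2826 genes for lithium over genotypes, 818 for lithium in WT, 1579 for lithium in HT, 160 for fluoxetine over genotypes and 31 for genotype over treatments. DESeq2 1.42.0 was another. The remaining alternatives were TMM scaling, voom weights, no filter, pseudocounts of 0.5 and 5, the compared groups alone, a replicate block, tissue scores as covariates, leaving out 20 libraries with a high olfactory or striatal score, and leaving out each library in turn. A score is the mean log2 value of a marker list minus its median over libraries. The comparison of lithium with fluoxetine was added after the data had been seen. The main fit was also run on simulated reads with known changes. Those reads were drawn independently for each library, without shared tissue or litter differences, so that run does not bear on such differences.

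The 31 genes and the 22 lists were chosen with earlier results of these data known. Values and statistics are given for genes called in any comparison and for P2ry12, Tmem119, Cx3cr1, Csf1r, C1qa, C1qb, C1qc, Trem2, Tyrobp, Ly86 and Cd180, for the gene with the smallest p where none was called, for up to 4 called genes of each other list, and for the 10 other genes that correlated best, of which 2 are not reported here. Value per kilobase used the longest APPRIS principal transcript of GENCODE vM21. Of the 31 genes, 24 were found in the RefSeq promoter table. Exons of 6 genes overlap those of another annotated gene (Cd180, Csf1r, Cx3cr1, P2ry12 and Slco2b1 on the other strand, Itgam on the same strand), and their values are uncertain to that extent.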

Additional observations from a re-analysis of the deposited data

Results flagged for a closer look

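Within each group of 1 genotype and treatment, with 9 or 10 libraries of both sexes, the highest or lowest value of a gene was singled out when its gap to the next was large for the range of the group. Chance singles out about 1 in 20 such groups, and 11 of 186 were found. HT vehicle female 1 had the highest Csf1r (3350.1, the next library at 3039) and the highest Spi1 (144, next 115) of its group. HT fluoxetine female 1 had the highest Cd180 (114, next 57.7) and the highest Ptprc (147, next 117). WT vehicle female 1 had the lowest Ly86 (158, next 189.6). Sall1 was at 1828 in WT vehicle female 3 (next 946), a library with a high olfactory score. Spi1 was at 135 in WT vehicle female 5 (next 108) and Tmem119 at 685 in HT lithium male 4 (next 579). Selplg was low in WT fluoxetine male 5 (634, next 735) and in HT vehicle male 4 (619, next 761), and Cd68 was low in HT lithium male 3 (168, next 210.5).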

How the results depend on the processing

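The lithium calls depended most on the libraries and covariates used. Without the 20 libraries with a high olfactory or striatal score, the number of the 31 genes called was 5 for lithium over genotypes, 0 for lithium in WT, 1 for lithium in HT and 0 for lithium minus fluoxetine. That fit has fewer libraries, and in WT the median change was -0.10. With both scores as covariates on all 56 libraries instead, C1qa alone lost its call for lithium over genotypes, while Cx3cr1, C1qc and Itgam gained one. With vascular, border macrophage and leukocyte scores as covariates, the counts were 5 for lithium over genotypes, 3 for lithium in WT, 1 for lithium in HT, 2 for lithium minus fluoxetine (share of all genes not given) and 2 for genotype over treatments (P2ry12 and Fcrls, higher in HT). The median change was then -0.074 for lithium in WT and 0.15 for genotype under lithium. The cause was not tested.

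Under all 12 alternatives Ly86, Tyrobp, Fcrls and Cd180 were called lower with lithium over genotypes, P2ry12 and Fcer1g under 11, and C1qa under 8. Of 408 single-gene results, 345 kept their side of the threshold and 63 lost it, and no result changed direction. Within a sex, the count in WT females (3) was 1 under TMM, voom, no filter, pseudocount 5, edgeR and the olfactory and striatal covariates, and 0 with only the groups compared, without the 20 libraries and with the vascular covariates. In WT males (1) it was 0 with only the groups compared, the replicate block, the olfactory and striatal covariates and without the 20 libraries. In HT females (0) it was 1 under DESeq2 and the olfactory and striatal covariates.

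Leaving out 1 library at a time gave 12 to 18 calls for lithium over genotypes, 3 to 11 in WT, 3 to 9 in HT, 0 to 1 for fluoxetine over genotypes, 3 to 9 for lithium minus fluoxetine, 0 to 4 in WT females and 0 to 1 in WT males. With the replicate number as a block within sex, 15 genes were called for lithium over genotypes, 8 in WT, 7 in HT and 8 for lithium minus fluoxetine. The shares of all genes called in the single omissions and with the block are not given here. Whether these counts moved apart from those of all genes can therefore not be told. Replicate numbers here and for the libraries named are those of the titles, which differ from the numbers in the library names for WT fluoxetine female 4 and WT lithium females 2 to 4. The numbers showed no pairing of the libraries at the median. Same-numbered libraries of 1 sex and different groups had a median correlation of 0.003 (133 pairs), against -0.002 for other-numbered ones (520 pairs). The highest correlations were 0.43 and 0.29 in the same order. Depth did not limit most genes, but Cd180 rests on 26.7 to 114 reads per library after scaling.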
